A study of Brassica napus with 12 samples.

Results

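The nuclear genes for photosystem subunits, their oxygen-evolving proteins and the carriers of photosynthetic electrons were followed in young leaves of oilseed rape (Brassica napus). Members were all loci of the deposited table whose best Arabidopsis match is 1 of 28 listed genes and that reached at least 1 FPKM (read fragments scaled by transcript length and library depth) in 2 or more of the 12 libraries. Of 134 matching loci, 114 passed, out of 49700 loci tested and 101040 in the table. These 114 members stand for 26 of the 28 genes, with 2 to 7 members per gene, and no locus carried PSAD2 or PSAE2 as its match. The A genome held 59 of them and the C genome 55, and 20 of the 114 lie on sequence not placed within a chromosome.

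All plants were the line RV31, a derivative of the cultivar Westar, grown for 21 days in white light of 70 µmol m-2 s-1, and the youngest true leaves were taken. Each of the 6 groups had 2 libraries, numbered 41 and 42. By the methods, plants of the UV-B experiment stood in dimmer white light from the night before treatment. White light leaves then received 70 µmol m-2 s-1 of white light, and UV-B leaves received 3 µmol m-2 s-1 of broadband UV-B for 4 h. Herbivory leaves carried larvae of the diamondback moth Plutella xylostella for 1 h under dimmer white light, and no undamaged and unsprayed group in that light is labelled. The other groups were sprayed with 4 mL of water, of 0.01% ethanol with 0.01% of the wetting agent UN65, or of 100 µM methyl jasmonate (MeJA), a volatile wound hormone that was dissolved in the same ethanol and UN65, and stood covered under dimmer white light. Spray, cover and light therefore cannot be told apart between sprayed and white light leaves, larvae and light between herbivory and white light leaves, and larvae, spray and cover between herbivory and water leaves. Between UV-B and herbivory leaves, UV-B, larvae and the white light regime cannot be told apart. The methods also set the herbivory cabinet warmer than the growth cabinets, and from plants with larvae they took the damaged leaf tissue. Both may add to each comparison with herbivory. The white light given along with UV-B is not stated for these samples. The labels give harvest 4 h after treatment. The methods count those 4 h from larval removal and from the start of the other treatments. By that count UV-B leaves were harvested as their 4 h of UV-B ended, whereas the labels can be read as 4 h after that. The methods describe RNA of 3 independent replicates of each treatment as pooled, and how the 2 labelled libraries of a group relate to that pool is not settled. The p-values measure the spread between these libraries, which may be technical.

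In the thylakoid membrane, photosystem II takes electrons from water, the cytochrome b6f complex passes them to the copper protein plastocyanin, and photosystem I lifts them onto ferredoxin, from which ferredoxin-NADP+ reductase makes NADPH. The chlorophyll-binding core proteins of both photosystems are encoded in the chloroplast, whereas the smaller and peripheral subunits described here are encoded in the nucleus and imported. The roles given below are those known from Arabidopsis. Brassica napus arose from a cross of a pair of diploid species and usually keeps a copy of each gene in its A and its C genome.

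These genes were among the most abundant transcripts of the leaf. The mean level of a member over the 12 libraries ran from 1.21 to 2173 scaled FPKM with a median of 509, against a median of 4.67 over all loci tested. Together the members took between 4.30% (herbivory 42) and 9.54% (white light 41) of all FPKM of a library. Summed over its loci, PSBO1 had the highest mean of a gene, 4969, and the plastocyanin gene PETE1 the lowest, 265. Of the 20 loci below the filter, 13 were listed at 0 in every library, and the highest value among them was 1.23 FPKM. The members just inside the filter were BnaA08g27040D (PSAO) and BnaC01g12660D (PSBQ2), whose second highest libraries had 1.90 and 2.35 FPKM, and just outside lay BnaC04g13750D (PSBP1) at 0.929 and BnaAnng28120D (PSAO) at 0.649.

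Levels of nearly all of these genes moved together from library to library, and the 2 libraries of a group lay as far apart as the groups did. White light 41 was the highest library for 17 of the 26 genes, UV-B 42 for 6 and water 41 for 3, while herbivory 42 was the lowest for 20. The summed level of the members was 111292 and 62160.3 scaled FPKM in the white light libraries (41 and 42), 50849 and 88270 in UV-B, 68481 and 29347 in herbivory, 86213 and 45228 in water, 55582 and 53571 in ethanol + UN65, and 45911 and 60794 in MeJA. All pairs of groups overlapped in these sums except that ethanol + UN65 and MeJA lay below both white light libraries. Within a group the median member differed between replicates by 1.81-fold in white light, 1.84-fold in UV-B, 2.35-fold in herbivory, 1.91-fold in water and 1.40-fold in MeJA, and by 1.06-fold in ethanol + UN65. In herbivory, 69.3% of the members were at least 2-fold apart between the replicates, against 12.7% of all loci. The same share was 33.3% against 14.8% in white light, 43.9% against 21.6% in UV-B and 41.2% against 12.5% in water, and 18.4% against 11.9% in MeJA. It was the other way in ethanol + UN65, with 0.877% against 6.81%. The median of all loci differed between replicates by at most 0.03 on the log2 scale, since each library was scaled to that median. In bulk leaf tissue, fewer cells of a type and less RNA per cell cannot be told apart.

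**Figure D1:**
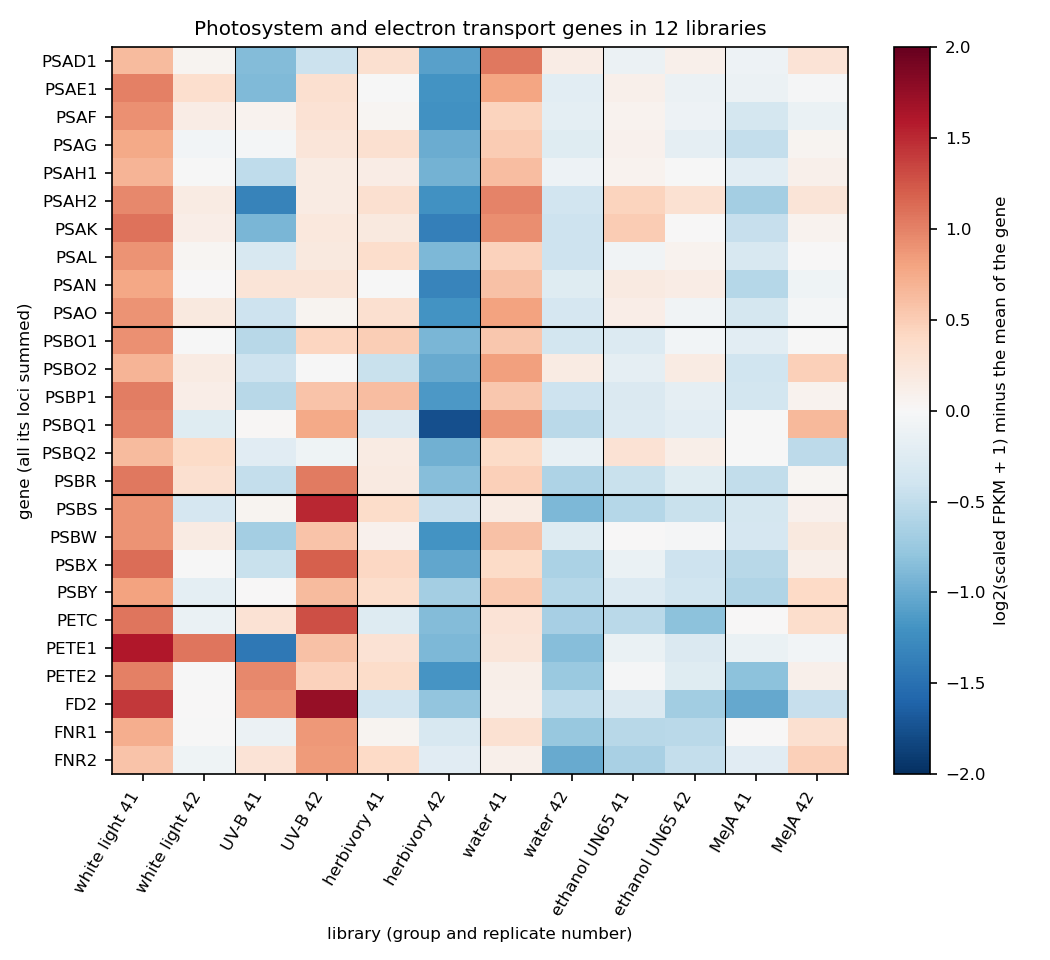
Level of each of the 26 genes (rows, all loci of a gene summed, ordered by photosystem I subunits, oxygen-evolving proteins, other photosystem II proteins and electron transport) in the 12 libraries (columns), as log2(scaled FPKM + 1) minus the mean of that gene over the libraries. White light 41 is high and herbivory 42 low in nearly every row, and FD2 is high in both UV-B libraries.

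In UV-B against white light, the control named for it in the labels, none of the members passed the thresholds (limma, adjusted p under 0.05 and at least a 2-fold change), while 3.42% of all loci tested were called. The median log2 difference of the members was -0.39 against -0.0047 for all loci, and 76 of the 114 members were lower in UV-B. This median was 0.0067 without white light 41 and -0.079 without UV-B 41. At an unadjusted p under 0.05, 7 of the 114 members passed, which is 6.14% against 21.9% of all loci. Both UV-B libraries lay below both white light libraries for 23 members (20.2%, against 24.0% of all loci) and above them for 5 (4.39%, against 24.0%). The smallest p belonged to a weak PSBQ2 locus, BnaC01g12660D (log2 1.47, SE 0.45, limma adjusted p = 0.11).

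Herbivory leaves had lower values than white light leaves for 111 of the 114 members, with a median log2 difference of -0.85 against -0.0031 over all loci. None of the members was called by limma, where 0.0201% of all loci were, and 10 had an unadjusted p under 0.05 (8.77%, against 9.09%). Groups did not overlap for 37 members that were lower (32.5%, against 19.9% of all loci) and for 2 that were higher (1.75%, against 20.1%). Without herbivory 42 the median difference was -0.25 and 3 members were called lower, and without herbivory 41 it was -1.51 with none called. All 3 of those calls were C01 copies that were nearly missing in herbivory 41 (BnaC01g09730D, BnaC01g12690D and BnaC01g23800D), and in the full fit BnaC01g09730D (PSAE1) had the smallest p of this comparison (log2 -4.84, SE 1.18, adjusted p = 0.32).

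Against water, herbivory leaves gave a median log2 difference of -0.44 with 92 members lower, and limma called none of the members and 1.15% of all loci. Here 10 members had an unadjusted p under 0.05, which is 8.77% against 18.4% of all loci, and the groups did not overlap for 15 lower members (13.2%, against 24.1%) and 3 higher ones (2.63%, against 26.0%). The sign of the median rested on 1 library in each group, since it was 0.15 without herbivory 42 and 0.044 without water 41. Water against white light gave a median of -0.43 with 98 members lower and none called, against 1.24% of all loci called. An unadjusted p under 0.05 was reached by 9 members (7.89%, against 20.2%), and the groups did not overlap for 14 lower (12.3%, against 26.7%) and 4 higher members (3.51%, against 25.5%). Leaving out white light 41 brought that median to -0.0086 and leaving out water 42 to 0.050.

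No member was called in the comparisons of MeJA and its solvent. MeJA against water gave a median of -0.26 with 84 members lower and none called by limma (0.453% of all loci), 3 members at an unadjusted p under 0.05 (2.63%, against 7.23%), and 17 members lower without overlap (14.9%, against 18.1%) and 0 higher (16.9% of all loci). This median was 0.24 without water 41 and 0.066 without MeJA 41. MeJA against ethanol + UN65, in which only the hormone differs, gave -0.05 with 68 members lower, none called by limma (0.00402% of all loci) and 5 at an unadjusted p under 0.05 (4.39%, against 8.79%). There 21 members were higher and 21 lower without overlap (18.4% each, against 22.0% and 22.8%), and the median was 0.18 without MeJA 41. Ethanol + UN65 against water gave -0.23 with 96 lower, none called by limma (0.00402% of all loci) and 5 at an unadjusted p under 0.05 (4.39%, against 2.99%). The groups did not overlap for 10 lower (8.77%, against 13.2%) and 4 higher members (3.51%, against 15.3%), and this median became 0.27 without water 41.

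UV-B and herbivory leaves gave the most calls of the 8 comparisons, with 7.65% of all loci called. In this comparison limma called 2 of the 114 members, both higher in UV-B, where 5.10% of all loci were called higher and 2.55% lower: a ferredoxin locus, BnaC01g28900D, and the same PSBQ2 locus, BnaC01g12660D, which was barely expressed at 0 to 6.79 scaled FPKM. The median member had a log2 difference of 0.42 and 91 of the 114 were higher, but leaving out herbivory 42 brought the median to -0.25 and leaving out UV-B 42 to 0.014. An unadjusted p under 0.05 was reached by 12 members (10.5%, against 27.2% of all loci). UV-B libraries lay above both herbivory libraries for 27 members (23.7%, against 26.7% of all loci) and below them for 1 (0.877%, against 26.8%). A test for any difference among the 6 groups (moderated F-test in limma) called none of the members and 8.11% of all loci, with 12 members at an unadjusted p under 0.05 (10.5%, against 30.7%), and the smallest adjusted p of a member was 0.0589 for BnaA09g01470D (PETC). The median standard error of a member's log2 difference was 0.65, against 0.37 over all loci, so these 2 libraries a group gave the members less precision than most genes. With the loci of each gene summed before the fit, limma called none of the 26 genes in any comparison.

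**Figure D2:**
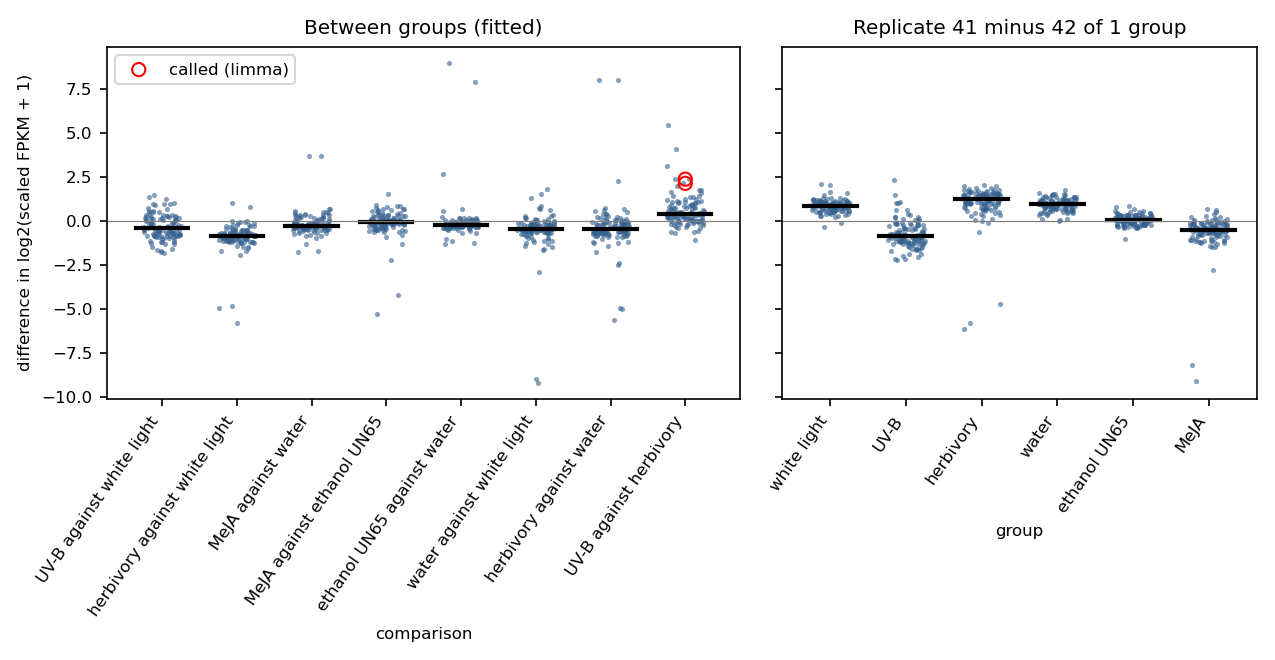
Left, fitted log2 difference of each of the 114 members in the 8 comparisons (points), with the median as a bar and the 2 called members of UV-B against herbivory ringed. Right, the difference between replicates 41 and 42 of each group on the same axis, where the medians reach 1.23 in herbivory and -0.88 in UV-B, farther from 0 than all medians on the left. The points beyond 3 in size belong to copies on A09 and C01 that were missing in single libraries.

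Photosystem I subunits made up the largest share of the member sum, 33.7% to 52.1% by library. PSAD1 (Arabidopsis AT4G02770) and PSAE1 (AT4G28750), which dock ferredoxin on the stromal side, had mean summed levels of 2649.8 and 3053 scaled FPKM. PSAD1 is carried by only 2 members and was the gene with the single highest locus, BnaC09g00220D (C09:93531-94765, mean 2173). Its summed level was 3814 and 2555 in white light, 1341 and 1830.0 in UV-B, 3066 and 1159.7 in herbivory, 5128 and 2722 in water, 2275 and 2647 in ethanol + UN65, and 2291 and 2969 in MeJA. Both UV-B libraries were therefore below both white light libraries and below all sprayed libraries for this gene, yet limma on the summed gene gave a log2 difference of -0.99 (SE 0.61, adjusted p = 0.35) against white light. PSAE1 ranged from 1233 (herbivory 42) to 5673 (white light 41), led by BnaC08g13230D (C08:18245823-18247008, mean 1429).

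PSAF (AT1G31330) and PSAN (AT5G64040) form the lumenal side at which plastocyanin binds. PSAF had a mean of 3215 over 7 members, led by BnaC05g25250D (C05:20098606-20100113, mean 1121), and PSAN 2967 over 7 members, led by BnaC02g42890D (C02:45290553-45291499, mean 1029.6). The member with the smallest p in both MeJA comparisons was a weak PSAF locus, BnaCnng19490D, with 118 and 63.3 scaled FPKM in water, 69.2 and 56.5 in ethanol + UN65, and 20.6 and 28.5 in MeJA. MeJA libraries were the lower ones without overlap, and the log2 difference was -1.79 (SE 0.46, limma adjusted p = 0.19) against water and -1.33 (SE 0.46, adjusted p = 0.42) against ethanol + UN65. UV-B leaves were low in this locus too, at 22.5 and 17.5.

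PSAG and PSAK sit at the edges of photosystem I where the antenna attaches, and PSAH, PSAL and PSAO form the side at which antenna of photosystem II can dock. Their mean summed levels were 2964 for PSAG (AT1G55670), 1921 for PSAK (AT1G30380), 2393 for PSAH1 (AT3G16140), 2498 for PSAH2 (AT1G52230), 3453 for PSAL (AT4G12800) and 3187 for PSAO (AT1G08380). Their leading loci were BnaC03g70700D, BnaC03g59670D, BnaC05g37250D, BnaA06g01680D, BnaA08g04820D and BnaA09g48920D in that order. PSAL held closest to the common library pattern of all 26 genes, along with PSBO1. After that common shift was taken out of each library, the spread of a gene over the 12 libraries had an SD of 0.12 (PSAL) to 0.69 (FD2) on the log2 scale, with a median of 0.30. PSAH2 had its lowest value in UV-B 41, with 887 there against 2494 in UV-B 42, 4342 and 2511 in white light, 2787 and 964 in herbivory, 4429 and 1715 in water, 3027 and 2752 in ethanol + UN65, and 1396 and 2668 in MeJA. Its leading locus was BnaA06g01680D (A06:1012468-1013322, mean 882), and PSAK, which was also low in UV-B 41 (922 against 2012 in UV-B 42), was led by BnaC03g59670D (C03:48943590-48944725, mean 1069).

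Oxygen-evolving proteins shield the manganese cluster of photosystem II on the lumenal side and came second in abundance, at 24.98% to 32.4% of the member sum. PSBO1 (AT5G66570) ranged from 2479.6 (herbivory 42) to 8834 (white light 41), PSBP1 (AT1G06680) from 2039 to 9229 in the same libraries and PSBR (AT1G79040), a small lumenal protein associated with them, from 2311 to 8678. The leading loci were BnaC07g16640D for PSBO1 (C07:22645918-22647710, mean 1136), BnaC08g01880D for PSBP1 (C08:1368759-1370234, mean 1297) and BnaC06g20160D for PSBR (C06:22220874-22221724, mean 1932). The second PSBO gene, PSBO2 (AT3G50820, led by BnaA01g19750D), reached only 263 to 935, a mean of 564 against 4969 for PSBO1 on the FPKM scale, which is per length. PSBQ2 (AT4G05180) had a mean of 2443 and PSBQ1 (AT4G21280, led by BnaA01g11190D) of 1107. Nearly all of the PSBQ2 signal came from BnaA09g19870D and BnaC09g21870D (mean 1398), and the called locus BnaC01g12660D (C01:8093397-8094743) added a mean of 1.71. In that locus UV-B had 6.79 and 2.86 scaled FPKM, herbivory 0 and 0.555, and the other 8 libraries 0.64 to 1.99. UV-B was the highest group, at a level near the filter, and its log2 difference from herbivory was 2.14 (SE 0.45, limma adjusted p = 0.028). The call held under 11 of 17 alternatives and was lost without UV-B 41 or either herbivory library. The locus lies in a stretch of C01 that was low in herbivory 41. The 11 include alternatives that could not lose the call: no minimum fold change, and members outside such stretches, which leave this locus out of the members.

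Of the other photosystem II proteins, PSBS (AT1G44575), the pH sensor of non-photochemical quenching, had copies with different patterns. Its summed level was 3717 and 1587 in white light, 2066 and 5662 in UV-B, 2569 and 1453 in herbivory, 2245 and 1074 in water, 1343 and 1469 in ethanol + UN65, and 1562 and 2129 in MeJA. UV-B 42 stood above all other libraries, but UV-B 41 overlapped with 4 of the other groups. This height came from the A08 and C08 copies: BnaA08g04420D (A08:3861957-3863476) had 485 and 2207 in UV-B against 162 to 748 elsewhere, and BnaC08g05110D (C08:6010444-6011927) had 287 and 1304 against 122 to 685. BnaAnng19110D and BnaA10g08750D peaked in white light 41 instead, at 1554 and 731, with 1496 and 655 in UV-B 42. PSBX (AT2G06520, led by BnaC08g07980D), PSBW (AT2G30570, led by BnaA05g11890D) and PSBY (AT1G67740, led by BnaA02g13320D), small membrane subunits of photosystem II, had mean summed levels of 1007, 2376 and 1155. Among them PSBX was highest in UV-B 42 (2073) as PSBS was.

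Electron transport genes took a larger share of the member sum in UV-B than in any other library. That share was 24.5% and 22.4% in UV-B, 16.3% and 13.4% in white light, 11.95% and 17.2% in herbivory, and 10.4% to 14.5% in the 6 sprayed libraries. Photosystem I subunits had their lowest shares in the same leaves, at 40.3% and 33.7%, against 41.5% to 52.1% in the other 10 libraries. UV-B did not overlap with any other group in either share. In summed level, the electron transport genes of UV-B (12459 and 19776 scaled FPKM) overlapped only with white light (18086 and 8355), and the photosystem I sums of UV-B (20491 and 29711) overlapped with every group. The shares of a library add up to a fixed total, so a higher one goes with a lower one.

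**Figure D3:**
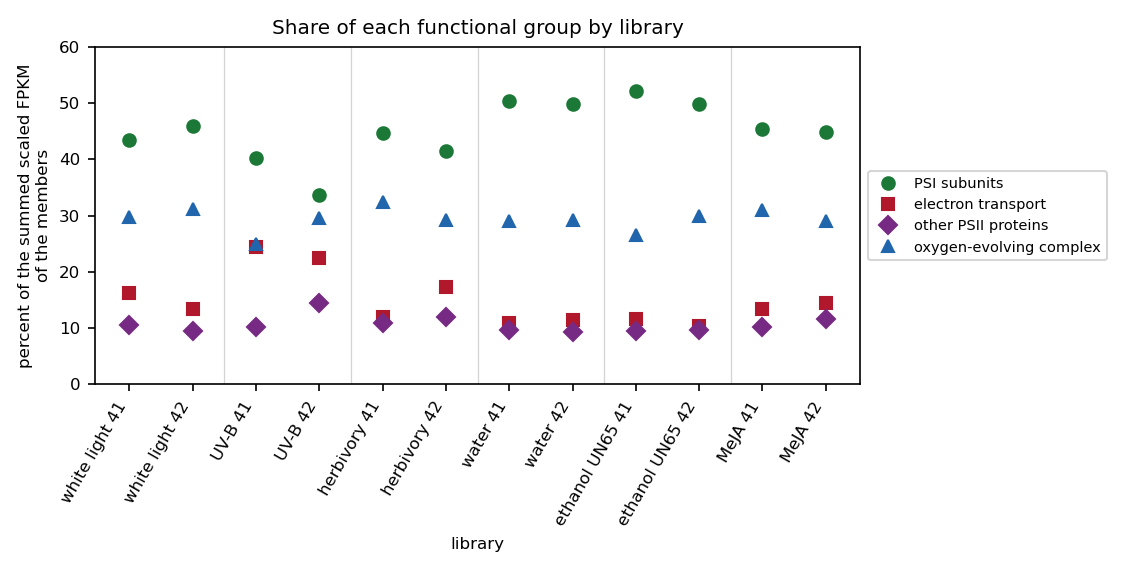
Share of each functional group in the summed scaled FPKM of the members, in percent, by library (1 point per library and group). Electron transport stands at 24.5% and 22.4% in the UV-B libraries and at 17.2% or less in the other 10.

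FD2 (AT1G60950), the main ferredoxin of photosynthetic tissue, which accepts electrons from photosystem I, departed most from the common library pattern. Its summed level was 7304 and 2731 in white light, 5128 and 9143 in UV-B, 2099 and 1571 in herbivory, 2916 and 1909.5 in water, 2232 and 1679 in ethanol + UN65, and 1337 and 1977 in MeJA. Both UV-B libraries were higher than every herbivory, water, solvent and MeJA library, and white light 41 lay between them. As a share of the member sum FD2 stood at 10.1% and 10.4% in UV-B against 2.91% to 6.56% in the other 10 libraries. The gene was 3.77-fold higher in UV-B than in herbivory when its loci were summed (log2 1.91, SE 0.63, limma adjusted p = 0.079), and against white light the log2 difference was 0.62 (SE 0.63, adjusted p = 0.58).

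All 6 FD2 loci were higher in both UV-B libraries than in both herbivory libraries, and 1 of them was called. BnaC01g28900D (C01:26973024-26973962) had 1043 and 485 scaled FPKM in white light, 1068 and 1749 in UV-B, 276 and 250.1 in herbivory, 406 and 234 in water, 309 and 221 in ethanol + UN65, and 122 and 283 in MeJA. UV-B was the highest group without overlap, and its log2 difference from herbivory was 2.38 (SE 0.59, limma adjusted p = 0.044). This call held under 8 of 17 alternative settings or left-out libraries, whose adjusted p ran from 0.039 to 0.23. It was lost without any 1 of the 4 libraries compared. Alternatives that only narrow the set of members or drop the minimum fold change reuse the same fit and could not lose it. The other 5 loci gave log2 differences of 1.25 to 2.38 with adjusted p of 0.080 to 0.20 (limma). The leading locus, BnaA09g13970D (A09:7963228-7964157), had 1192 and 2073 in UV-B and 591 and 373 in herbivory.

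Plastocyanin carries electrons from cytochrome b6f to photosystem I, and its genes behaved differently from FD2. PETE1 (AT1G76100) had 684 and 476 scaled FPKM in white light, 83 and 340.2 in UV-B, 275 and 121 in herbivory, 267 and 125 in water, 205 and 184 in ethanol + UN65, and 205 and 217 in MeJA. Both white light libraries were above all 10 others. Summed per gene, PETE1 was lower by limma in UV-B (log2 -1.76, SE 0.66, adjusted p = 0.15), in herbivory (log2 -1.64, adjusted p = 0.48) and in water (log2 -1.64, adjusted p = 0.20), none past the threshold, and these 3 values share the same white light libraries. Its leading locus was BnaA07g32320D (A07:22442839-22443845, mean 158), and BnaC06g36770D followed it in every library.

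**Figure D4:**
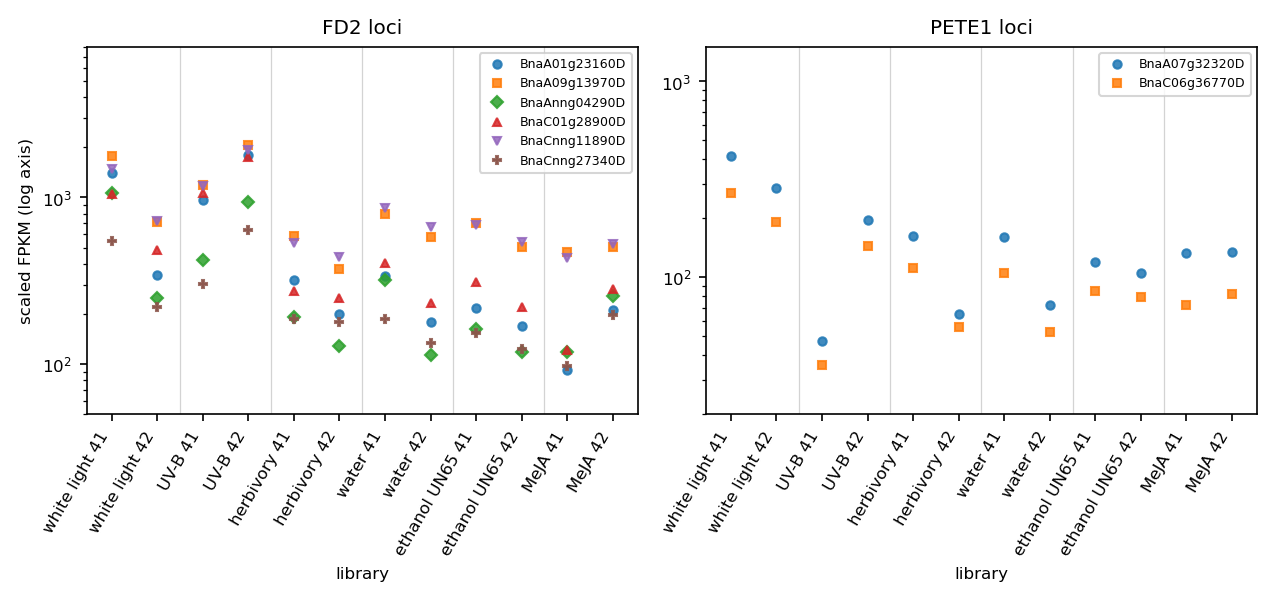
Scaled FPKM (log axis) of the 6 FD2 loci (left) and the 2 PETE1 loci (right) in each library, 1 point per locus and library. FD2 loci are high in both UV-B libraries and white light 41, and the PETE1 loci are highest in the 2 white light libraries.

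PETE2 (AT1G20340), the more abundant plastocyanin gene with a mean of 1596, had copies that parted in some libraries. BnaA08g21860D (A08:16031613-16033551) and BnaCnng26710D had 967 and 1466 scaled FPKM in UV-B 41, their highest value in any library. BnaA06g38550D and BnaCnng32150D had 207 and 186 there, against 454 and 392 in UV-B 42. In water the order was reversed, with 342 and 197 for BnaA08g21860D against 593 and 334 for BnaA06g38550D, as in MeJA 41 (180 against 322). The copies of this gene thus differed within single libraries, and no PETE2 locus was called in any comparison.

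PETC (AT4G03280, led by BnaC09g00580D) encodes the Rieske iron-sulfur protein of cytochrome b6f. Its summed level was 3914 and 1697 in white light, 2274 and 4536 in UV-B, 1556 and 1019 in herbivory, 2233 and 1166 in water, 1270.3 and 1053 in ethanol + UN65, and 1862 and 2355 in MeJA. UV-B was higher than herbivory without overlap (log2 1.35, SE 0.60, limma adjusted p = 0.17). FNR1 (AT5G66190) and FNR2 (AT1G20020), the ferredoxin-NADP+ reductases, had means of 1273 and 919 and were both highest in UV-B 42 (2201 and 1556) and lowest in water 42 (713 and 426). Their leading loci were BnaA09g08030D (A09:3884391-3886692, mean 707) and BnaAnng14750D (mean 395).

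The members with the largest log2 differences in any comparison were single copies that were nearly missing from single libraries. On the start of chromosome A09, 3 genes behaved this way in both water libraries and MeJA 41. BnaA09g01470D (PETC, A09:775322-777242) had 0.712 and 0.199 scaled FPKM in water and 0.0777 in MeJA 41, against 292 to 1424 in the other 9 libraries. BnaA09g06690D (PSAN, A09:3275955-3276926) had 1.76, 0.491 and 0.116 in those libraries and 355 to 1241 in the others. BnaA09g01080D (PSAD1, A09:607126-608132) had 112, 103 and 57 there and 292 to 1027 elsewhere. These losses set the largest differences of the water comparisons: BnaA09g01470D was lower in water than in white light by a log2 of -9.19 (SE 2.00, limma adjusted p = 0.058), and BnaA09g06690D was higher in ethanol + UN65 than in water by 8.97 (SE 2.19, adjusted p = 0.38). Fits of the compared groups alone called these 2 loci in each of the comparisons of water with white light, ethanol + UN65 and herbivory (limma, adjusted p = 0.039 to 0.048). Over all loci, water against white light then had 21 called higher and 100 lower. Ethanol + UN65 against water had 66 and 3, and herbivory against water 190 and 12.

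Of the copies on chromosome C09, that of PSAN (BnaC09g06210D) had its 3 highest values in those libraries, 748 and 443 scaled FPKM in water and 452 in MeJA 41, against 66.7 to 427 in the others. As a share of the A09 and C09 copies together, the A09 copy of PETC made up 40.3% to 43.7% in 8 libraries, at most 0.0431% in water and MeJA 41, and 18.8% in MeJA 42. For PSAN the corresponding shares were 79.9% to 84.2%, at most 0.235% and 58.6%, and for PSAD1 23.3% to 31.2%, at most 3.79% and 13.3%. MeJA 42 was thus intermediate for all 3 genes. BnaC09g00220D (PSAD1) had 5017 and 2618 in water and 2234 in MeJA 41, of which only water 41 lay above the other 9 libraries (868 to 2787), and BnaC09g00580D (PETC) had 1653, 874 and 1393, within their range (411 to 1969.9). Summed over all loci, PETC and PSAN stayed within the range of the other 9 libraries, whereas PSAD1 was highest in water 41 (5128). PSAD1 also had its highest departures from the common library pattern in water, 0.55 and 0.56 on the log2 scale. PSBO1 (BnaA09g07840D, A09:3815454-3817267) and FNR1 (BnaA09g08030D), which lie farther along A09, kept shares of 36.3% to 45.2% and 53.4% to 59.5% in all 12 libraries, although the median of the 51 loci around BnaA09g07840D was low in water and MeJA 41.

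Neighbouring genes moved with these members. Over the 302 loci tested between BnaA09g01080D and BnaA09g06690D (A09:607126-3276926), the median locus was at -1.93, -1.92 and -1.91 in water 41, water 42 and MeJA 41 on the log2 scale relative to the median library, -0.36 in MeJA 42 and 0.17 to 0.30 in the other 8. The 336 loci between the corresponding C09 members (C09:93531-3751008) stood at 0.56, 0.59, 0.49 and 0.14 in the same 4 libraries and at -0.17 to -0.10 in the others. C09 neighbours were thus raised where A09 neighbours were low.

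A stretch of chromosome C01 behaved in the same way in herbivory 41, but without a raised partner. BnaC01g09730D (PSAE1, C01:5714980-5716035) had 3.32 scaled FPKM in herbivory 41 and 114 in herbivory 42, against 176 to 862 in the other 10 libraries. BnaC01g12690D (PSBQ1, C01:8102181-8103285) had 0.0895 and 59.4 against 234 to 699, and BnaC01g23800D (PSBO2, C01:17510290-17512295) had 0.0578 and 72.0 against 145 to 349. The C01 share of the A01 and C01 copies of PSBO2 was 36.5% to 41.6% in 9 libraries, 0.0148% in herbivory 41, and 27.4% in both UV-B 42 and herbivory 42. PSBQ1 and PSAE1 had the same order, with 23.1% and 59.4% in UV-B 42 and 20.5% and 61.2% in herbivory 42, between herbivory 41 and the other libraries.

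Over the 714 loci tested in that part of C01 (C01:5714980-17512295), the median stood at -1.86 in herbivory 41, -0.49 in herbivory 42, -0.39 in UV-B 42 and 0.06 to 0.12 in the other 9. The 663 loci of the matching part of A01 (A01:3861057-11217808) had medians of -0.01 to 0.04 in all 12 libraries. PSBO2 as a whole was low in herbivory 41, with 391 against 594 to 935 in white light and water, and its log2 departure from the common library pattern was -0.68, the lowest of any library for this gene. Summed per gene, PSBO2 was lower in herbivory than in water by a log2 of -1.22 (SE 0.43, limma adjusted p = 0.19). BnaC01g28900D (FD2) lies outside this stretch, with a C01 share of 42.7% to 58.8%.

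**Figure D5:**
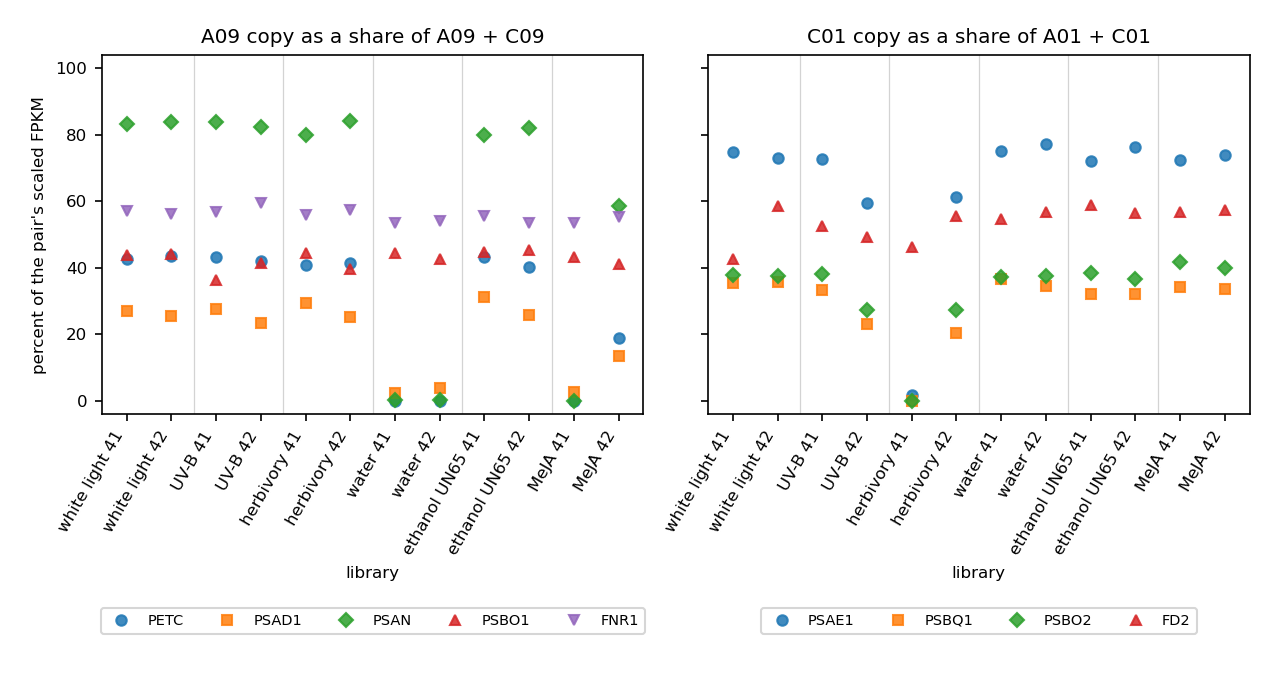
Share of the A09 copy in the sum of the A09 and C09 copies (left) and of the C01 copy in the sum of the A01 and C01 copies (right), in percent of scaled FPKM, by library. PETC, PSAD1 and PSAN fall to at most 3.79% in water and MeJA 41 and are intermediate in MeJA 42, PSAE1, PSBQ1 and PSBO2 fall to at most 1.85% in herbivory 41, and PSBO1, FNR1 and FD2 do not fall.

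Across the genome, 22 pairs of members had 1 A and 1 C locus on chromosomes of the same number, and 14 of them kept the A share within 10 percentage points of its median in all 12 libraries. Of the 8 that did not, 6 were the pairs described above. The other 2 were FD2 on A01 and C01, with an A share of 57.3% in white light 41 against a median of 44.0%, and PSAL on A08 and C08, with 38.6% in UV-B 41 against 53.4%. Several pairs were strongly unequal in every library, such as PSAF on A07 and C07 (A share 97.2% to 99.8%) and PSAN on A02 and C02 (0.564% to 2.93%). The member with the smallest p in herbivory against water came from that pair: BnaA02g34030D (PSAN) had 8.93 and 2.31 scaled FPKM in herbivory and 31.4 and 30.7 in water (log2 -2.48, SE 0.50, limma adjusted p = 0.054). Reads of near-identical copies can be divided between them by the counting software, so values of single copies are less certain than their sums.

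Other genes of the pathway were taken as 3 lists. Of the 95 loci for other thylakoid proteins (28 genes: minor photosystem II proteins, ATP synthase, other ferredoxins, thioredoxin reductase, cyclic flow), limma called none in UV-B against white light (5 at an unadjusted p under 0.05) and 7 higher in UV-B than in herbivory (7.37%, against 5.10% of all loci), with median log2 differences of 0.12 and 0.89. Those 7 included 2 loci of FTRA1, a subunit of ferredoxin-thioredoxin reductase (BnaA02g32880D, log2 2.14, SE 0.33, limma adjusted p = 0.010), and BnaA08g25500D of FD1, the minor leaf ferredoxin (log2 3.70, SE 0.86, adjusted p = 0.035). Also among the 7 were BnaC01g14340D (PGRL1A, log2 2.62) and BnaC01g22700D (log2 1.52). Their locus numbers fall between BnaC01g09730D and BnaC01g23800D, the part of C01 that was low in herbivory 41, so the share of 7.37% includes loci of that stretch. Of 41 loci for assembly factors, repair proteases and kinases (18 genes), limma called none in UV-B against white light (3 at an unadjusted p under 0.05) and 3 higher in UV-B than in herbivory (7.32%), 2 of them of STN7, the kinase of state transitions. Neither list had a called locus in any of the other 6 comparisons.

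Several regulators of nuclear photosynthesis genes and of plastid transcription were called in UV-B against white light, where no member was. Of 47 loci (14 genes), limma called 7 higher and 1 lower in UV-B than in white light (14.9% and 2.13%, against 2.56% and 0.857% of all loci). The 7 are copies of only HY5 and SIG5, so the share of loci does not speak for the list as a whole. HY5, a transcription factor of light signalling, had a summed level of 64.5 and 41.5 scaled FPKM in white light, 370.0 and 831 in UV-B and 19.3 to 60.3 in the other 8 libraries. UV-B stood far above every other library, and 4 HY5 loci were called, led by BnaCnng20200D (log2 3.91, SE 0.42, limma adjusted p = 0.0078). SIG5, a nuclear-encoded sigma factor that directs the plastid RNA polymerase to photosystem genes of the chloroplast, had 136 and 65.2 in white light, 769 and 1696 in UV-B and 19.9 to 76.1 elsewhere. Its 3 called loci were led by BnaC07g30280D (log2 4.36, SE 0.70, limma adjusted p = 0.021). GLK1, an activator of nuclear photosynthesis genes, was lower, with 28.6 and 2.8 in UV-B against 57.0 and 67.0 in white light, and BnaA07g00410D was called (log2 -2.44, SE 0.51, limma adjusted p = 0.041). MeJA 41 was also low in GLK1, at 18.0, so that UV-B 41 was not below every library. Against herbivory, 8 regulator loci were higher in UV-B and 1 lower (17.0% and 2.13%). Fitted on the 2 groups alone, the leading HY5, SIG5 and GLK1 loci were not called in UV-B against white light (limma, adjusted p = 0.28 each). That fit called no locus at all, so it says nothing about these loci. BnaC07g30280D (SIG5) was also lost without UV-B 42 or either white light library and held under 13 of 17 alternatives, and BnaCnng20200D (HY5) was lost without white light 42 and held under 15. BnaA07g00410D (GLK1) held under only 8 of 17 (adjusted p = 0.027 to 0.30, limma), and was lost without UV-B 42 or either white light library, with no filter, a pseudocount of 0.1, equal totals, the replicate block or scaling to the median member.

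Leaf markers varied over the libraries as widely as the photosystem genes. The Rubisco small subunit RBCS3B had 30308 and 10318 scaled FPKM in white light, 10763 and 25286 in UV-B, 15939 and 8179 in herbivory, 17799 and 6259 in water, 8249.5 and 8517 in ethanol + UN65, and 8952 and 17609 in MeJA. In 5 of the 6 groups the replicate with more RBCS3B was also the one with the higher median member. RCA ran from 2651 to 16431 and CA1 from 556 to 6422, while RBCS1A had 0.2 to 19.9 in this table. Of the 16 marker genes listed, 11 had a locus past the filter. Markers of seed, flower and meristem stayed at or below 3.6 in sum, and the 4 markers of dividing cells ranged from 0.7 to 48.4. SEN1, a gene induced by darkness and sugar shortage, had 3.3 and 9.7 in white light, 544 and 421 in UV-B, 0.3 and 1.1 in herbivory, and 46.1 to 685 in the sprayed libraries, and 2 of its loci were called higher in UV-B than in white light. ASN1 and DIN10 were also listed for that state. ASN1 had 0.73 and 2.45 in white light, 15.8 and 74.1 in UV-B, and 0.30 to 54.6 in the sprayed libraries. DIN10 had 7.3 and 40.6, 193 and 263, and 40.6 to 538. For both, the sprayed libraries overlapped with white light, unlike those of SEN1. The part of these differences in the results on the photosystem genes was not tested.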

How the data were processed

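Leaf RNA of 12 libraries (6 groups of 2) was sequenced. The deposited matrix holds FPKM: the authors' values were made with TopHat2 2.1.12 and Cufflinks 2.2.1, as the labels list them, and the mean of the 2 UV-B columns equalled the authors' UV-B group value at all 101040 loci (relative tolerance 0.0001). Coordinates are those of the deposited tables, and the genome build is not given in the sources used here. Columns of the authors' own comparisons hold fold changes and p-values and were not used, nor were 22 single-library columns whose names fit none of the labels.

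Loci with at least 1 FPKM in 2 or more libraries were kept. One locus listed at 0 in both herbivory libraries and at 1000 FPKM or more in every other library was left out. Each library was scaled by the median of its ratios to the mean over libraries, and log2(value + 1) was fitted in limma 3.58.1 (R 4.3.3) with 1 mean per group over all 12 libraries and a trend in the prior variance. P-values were adjusted by Benjamini-Hochberg over 49700 loci, or over all genes where loci were summed by their Arabidopsis match. A call needed an adjusted p under 0.05 and a 2-fold change on that scale, which understates changes of low genes. The read depth of the libraries is unknown: low values came in steps of 1 read in 10 libraries, where 1 read was worth up to 1.69 times its value in herbivory 42.

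Members, lists, tests and alternatives were chosen with earlier results of these data known. For each gene the locus with the highest mean was named, for each comparison up to 3 called members with the largest rise and fall, and, where none was called, the member with the smallest p. Loci singled out beyond that rule (PSBS, PETE2, the second copies, and genes of the lists) were chosen after their values were seen. The alternatives were other filters, pseudocounts (0.1 and 0.5) and scalings, fits on only the groups compared, leaving out each library, a block for the replicate number, loci summed per gene, and members outside stretches in which 51 neighbouring loci had a median of -1 or less. Same-numbered libraries deviated together (correlation over 0.1) in 4 of 15 pairs of groups, with correlations from -0.37 to 0.41. The numbers thus gave no pairing common to all groups, but with 2 libraries a group this check cannot exclude a pairing of some.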

Additional observations from a re-analysis of the deposited data

How the results depend on the processing

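The median differences of the members cannot move in fits on only the groups compared, with the replicate block or with no minimum fold change. The adjusted p of a single locus cannot move with no minimum fold change or with members limited to those outside low stretches. These alternatives are among the 17 counted for single loci, so part of each count of held calls was fixed in advance. Under the other filters, pseudocounts, scalings and subsets the median differences moved by less than 1 SD between replicates (0.63 on the log2 scale). The exception was herbivory against white light, where setting the median member equal in all libraries gave 0.018. Doing so with loci summed per gene gave -0.083. That scaling fixes the median near 0 in every comparison. The other main medians were smaller than 1 SD, so they could hardly move by as much under it, and it cannot show that they are stable. In UV-B against herbivory the sign changed, from 0.42 to -0.11 under that scaling and to -0.088 with equal totals. Leaving out 1 library gave medians of -0.85 to 0.0067 in UV-B against white light, -1.51 to -0.25 in herbivory against white light, -0.67 to 0.24 in MeJA against water, -0.26 to 0.18 in MeJA against ethanol + UN65, -0.68 to 0.27 in ethanol + UN65 against water, -0.93 to 0.050 in water against white light, -1.07 to 0.15 in herbivory against water and -0.25 to 0.99 in UV-B against herbivory.

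Of the members called higher in UV-B than in herbivory (2), 1 was left with no filter, with a pseudocount of 0.1, with values as deposited, with columns of equal totals, outside the low stretches, outside them on placed chromosomes, and with summed genes scaled to the median member (FD2), and 0 were left in the 2 groups alone and with summed genes. Over all loci, 1924 were called higher with no filter, 2046 with a pseudocount of 0.1, 1597 as deposited and 1347 with equal totals. In the 2 groups alone no locus at all was called, so that fit says nothing about these members. Without 1 library the count was 0 to 3. Members called higher were 2 with the compared groups alone and 3 with the median member equal in all libraries, both for ethanol + UN65 against water and for herbivory against water. Over all loci, calls higher in ethanol + UN65 against water went from 1 in the main fit to 66 and 112 under these settings. In herbivory against water they went from 340 to 190 and 481. For water against white light 1 (as deposited), 2 (groups alone) and 3 (median member equal) were called lower, and for herbivory against water 1 (as deposited), 2 (equal totals) and 4 (median member equal). Over all loci the calls lower were 412, 100 and 132 in the first comparison and 454, 120 and 42 in the second. Without 1 library, 0 to 3 members were called lower in herbivory against white light and in herbivory against water, 0 to 2 lower in MeJA against ethanol + UN65 and 0 to 2 higher in MeJA against water. The F-test called 1 member as deposited, 4 with equal totals, 10 with the median member equal, 1 gene with summed genes so scaled, and 0 to 3 without 1 library. With the median member equal, all members called in pairwise comparisons other than UV-B against herbivory were A09 and C01 copies missing in single libraries, or BnaC09g06210D. The F-test there called such copies, BnaC09g06210D, BnaC09g00220D, BnaA01g23160D and BnaC01g28900D (FD2), and BnaA08g01590D (PSAH2). The scaling to the median member was chosen after seeing the data, as was leaving out unplaced sequence. The cause of these changes was not tested.

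With the replicate number as a block, 1 member was called higher in UV-B than in herbivory, the F-test called 1, and the other counts of called members stayed at 0. Over all loci the block called 936 higher and 318 lower in UV-B against white light (1273 and 426 without it) and 93 and 6 in MeJA against water (218 and 7), and 3 and 1 in herbivory against white light (8 and 2). Values as deposited moved the median of all loci by 0.13 (herbivory against white light), 0.21 (water against white light) and -0.19 (UV-B against herbivory), and equal totals by 0.29, 0.21 and -0.35. With equal totals the members' median in UV-B against herbivory was -0.088, and 1347 loci were called higher and 2551 lower, against 2536 and 1268. With 2 libraries a group and no known read depth, changes below about the replicate spread of the members (0.63 on the log2 scale) could not be detected. Changes well above it also went uncalled. BnaA02g34030D (PSAN), for example, was not called in herbivory against water at a log2 difference of -2.48 (limma adjusted p = 0.054).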
